A study of Homo sapiens with 12 samples.

Results

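The genes described here are 31 genes of sterol and fatty acid synthesis and of its control, chosen by name and grouped by their known roles. The choice was made with earlier results of these data known. They comprised 7 genes of the mevalonate pathway, 11 genes of the steps from squalene to cholesterol, 6 regulators of the pathway or carriers of sterol, and 7 genes of fatty acid synthesis and desaturation. Of the 31 genes, 29 were measured by a probe set that the array annotation gives to 1 gene, among 18404 genes measured in this way. FDFT1 (squalene synthase) was not analysed here. HSD17B7, a ketoreductase of sterol synthesis, had only a probe set shared with its pseudogene HSD17B7P2, and on that probe set no comparison passed the test.

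Cells build cholesterol from acetyl-CoA. Acetyl units are joined and reduced to mevalonate, converted to isoprenoids and coupled to squalene, which is closed to lanosterol and trimmed in several steps to cholesterol. Fatty acids start from the same acetyl-CoA, are built by fatty acid synthase, and are then elongated and desaturated. Both routes are controlled by the SREBP transcription factors. When sterols are scarce, SCAP escorts the SREBPs from the endoplasmic reticulum to the Golgi, where they are cut and released to the nucleus. When sterols are plentiful, the INSIG proteins hold SCAP back. SREBP2, from SREBF2, acts mainly on sterol genes and SREBP1, from SREBF1, mainly on fatty acid genes. INSIG1 is itself a well-known SREBP target.

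RNA was measured on the Affymetrix Human Gene 1.0 ST array in 2102Ep and NTera-2, established human embryonal carcinoma lines derived from teratocarcinoma. NTera-2 is pluripotent, and 2102Ep is called nullipotent because retinoic acid does not differentiate it. Each line received either siSOX2, which targets SOX2, or a non-targeting siRNA (Ambion Silencer Select Negative Control #1), which gave 4 groups of 3 arrays, all labelled as biological replicates. Cells of all groups were seeded 24 hours ahead, transfected for 6 hours in Opti-MEM I, which the labels call reduced-serum and the study's methods serum-free, and kept for 72 hours in medium with serum. A single siRNA against SOX2 was used, and 2102Ep received it with Lipofectamine 2000 and NTera-2 with Lipofectamine RNAiMAX, at different amounts of siRNA. Line, reagent and amount of siRNA therefore cannot be told apart in any comparison between the lines. The p-values measure the spread between these arrays, and in bulk RNA fewer cells of a type and less RNA per cell cannot be told apart.

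The targeted gene was lower after siSOX2 on every array of both lines. SOX2, which encodes a core pluripotency factor, fell by 3.14 on the log2 scale in 2102Ep (SE 0.12, adjusted p = 6.22e-12) and by 0.64 in NTera-2 (SE 0.12, adjusted p = 0.00225). The study detected no SOX2 protein by Western blot after siSOX2 in either line. The RNA values therefore do not rank the loss of protein. Of 13 measured embryonal carcinoma markers, SOX2 included, 9 fell in 2102Ep (against 5.9% of all genes) and 7 in NTera-2 (against 1.98%). Of 10 early mesoderm markers, 9 rose in 2102Ep (against 6.76% of all genes) and 7 in NTera-2 (against 2.96%). The marker lists were chosen with earlier results of these data known, so these counts are description only. The mesoderm list holds LGR5, whose rise of 4.84 in 2102Ep was the largest of all genes. NANOG and POU5F1, core pluripotency factors too, had only probe sets shared with related sequences, so the gene behind their signal is uncertain. On the 2 shared with NANOGP1, NANOG fell by 1.03 and 0.89 in 2102Ep and by 1.12 and 1.07 in NTera-2 (adjusted p up to 0.000233), and on the 1 of POU5F1 the differences of -0.28 and -0.13 did not pass. None of 10 markers of hepatocytes and adipocytes, cells that make much sterol or fat, rose in either line (against 6.76% and 2.96% of all genes). In 2102Ep 1 fell (against 5.9%), and in NTera-2 none fell (against 1.98%). A dimmer second probe set of APOA1, 1 of these markers, differed by -0.61 in 2102Ep and 0.88 in NTera-2 (adjusted p = 0.151 and 0.0586). On it the difference between the responses passed (-1.49, adjusted p = 0.0194). Of 10 fibroblast markers, 2 rose and 1 fell in 2102Ep (against 6.76% and 5.9% of all genes), and 3 rose and 2 fell in NTera-2 (against 2.96% and 1.98%). The part of these shifts in the results below was not tested. Over all genes, the correlation was 0.984 to 0.996 between arrays of a group and 0.93 to 0.992 between groups. The arrays of the 2102Ep control were the most variable, with a median SD over genes of 0.164 against 0.104 to 0.129 in the other groups.

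The first comparison asked how the lines differ before SOX2 is reduced, with NTera-2 control against 2102Ep control. Many of the members differed between the lines, mostly in the direction of higher signal in NTera-2. At an adjusted p of 0.05 or less, 14 of the 29 measured members were higher in NTera-2 (48.3%, against 21% of all genes) and 5 were lower (17.2%, against 21.5% of all genes). With the added condition of a 2-fold difference, CYP51A1 and LSS were higher (6.9% of members, 4.49% of all genes) and NSDHL was lower (3.45% of members, 3.28% of all genes). The median difference of the members was 0.32 on the log2 scale, and that of all genes was -0.06. The members are mostly bright genes, with 28 of 29 at or above the median signal. When only genes at or above the median signal were tested, 55.5% passed in either direction, against 42.4% of all genes. The median difference of those brighter genes was 0.03. For 22 members the 3 arrays of one line lay entirely above those of the other (75.9%, against 50.5% of all genes).

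**Figure D1:**
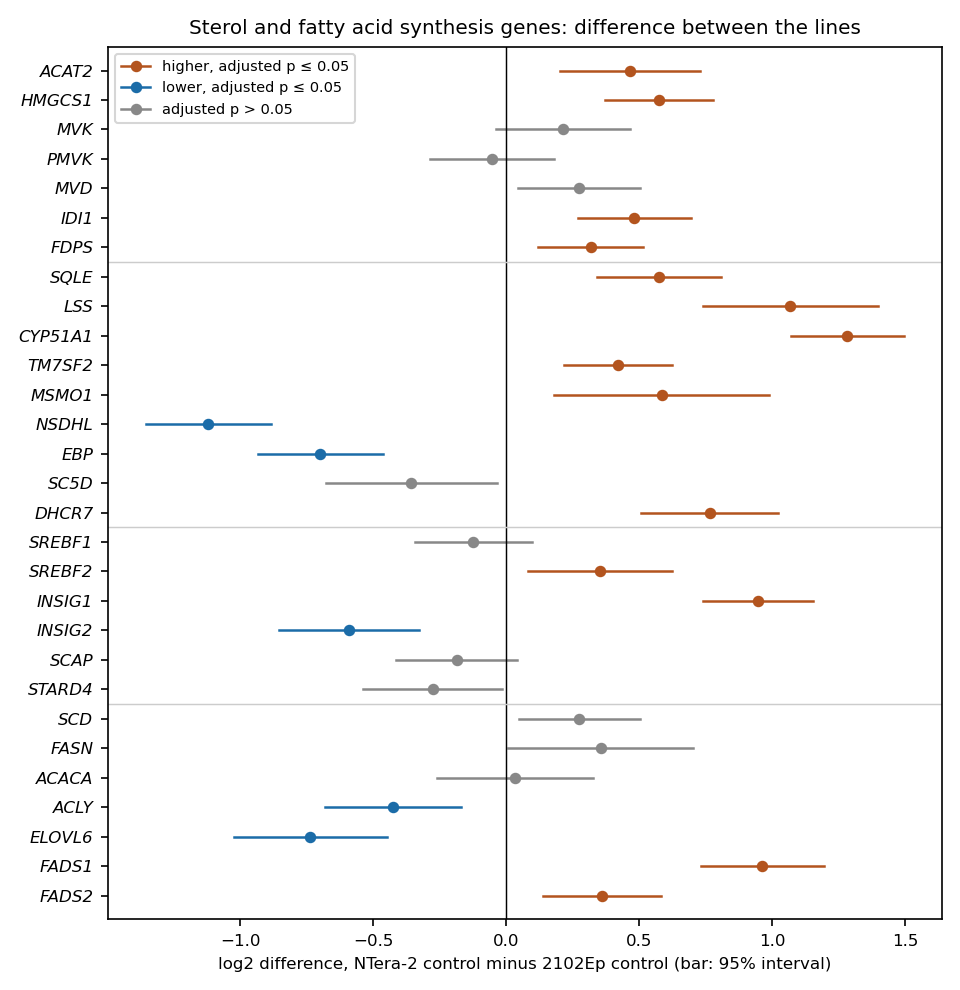
Log2 difference between NTera-2 control and 2102Ep control for each of the 29 measured genes, listed from top to bottom by role, with grey lines between the mevalonate pathway, the steps from squalene to cholesterol, the regulators and sterol transport, and fatty acid synthesis. Points are differences of the means of 3 arrays and bars their 95% intervals, and 14 genes lie to the right of 0 past the adjusted p against 5 to the left.

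In the mevalonate pathway, 4 of 7 genes were higher in NTera-2 and none was lower (against 21% and 21.5% of all genes). HMGCS1, the synthase that makes HMG-CoA, read 11.13, 11.00 and 10.94 (log2 signal) on the 2102Ep control arrays and 11.64, 11.61 and 11.55 on the NTera-2 control arrays. ACAT2, the cytosolic thiolase that joins the first acetyl units, read 9.94, 10.33 and 9.74 in 2102Ep control and 10.39, 10.57 and 10.45 in NTera-2 control. All NTera-2 arrays lay above all 2102Ep arrays for both genes, by a narrow margin for ACAT2. The differences were 0.58 ± 0.10 (log2, SE, adjusted p = 0.000112) for HMGCS1 and 0.47 ± 0.13 (adjusted p = 0.00607) for ACAT2.

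Later in the pathway, IDI1, the isomerase of the isoprenoid units, read 9.91, 9.82 and 9.82 in 2102Ep control and 10.32, 10.42 and 10.26 in NTera-2 control. FDPS, which makes farnesyl diphosphate, read 10.00, 9.99 and 10.02 in 2102Ep control and 10.31, 10.39 and 10.26 in NTera-2 control. Neither gene overlapped between the lines. IDI1 differed by 0.48 ± 0.10 (adjusted p = 0.000863) and FDPS by 0.32 ± 0.09 (adjusted p = 0.0106). Leaving out NTera-2 control replicate 2 ended the FDPS call (0.28, adjusted p = 0.0506), as did a further quantile normalization (0.23, adjusted p = 0.0512). A pair of probe sets shared by FDPS and its pseudogene FDPSP2 showed differences of -0.04 and 0.10 that did not pass the test. The kinases MVK and PMVK and the decarboxylase MVD, which act between these steps, did not pass, with differences of 0.21, -0.05 and 0.27. MVD lay just outside the threshold with an adjusted p of 0.0511.

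The widest differences of the whole group lay between squalene and cholesterol. There, 6 of 9 measured genes were higher in NTera-2 and 2 were lower (against 21% and 21.5% of all genes). CYP51A1, the lanosterol demethylase, read 9.90, 10.00 and 9.77 in 2102Ep control and 11.03, 11.29 and 11.21 in NTera-2 control. LSS, the cyclase that forms lanosterol, read 9.70, 9.03 and 9.45 in 2102Ep control and 10.45, 10.50 and 10.43 in NTera-2 control. NSDHL, a dehydrogenase of the demethylation at carbon 4, read 11.12, 10.95 and 10.75 in 2102Ep control and 9.80, 9.84 and 9.81 in NTera-2 control. The lines were separated on all arrays for these 3 genes, upward in NTera-2 for CYP51A1 and LSS and downward for NSDHL. CYP51A1 was 2.43-fold higher (1.28 ± 0.10, adjusted p = 2.52e-08), and a dimmer second probe set of the gene gave 0.50 ± 0.18 (adjusted p = 0.0364). LSS was 2.1-fold higher (1.07 ± 0.16, adjusted p = 2.65e-05). NSDHL was at 0.46 of its signal in 2102Ep control (-1.12 ± 0.11, adjusted p = 3.9e-07).

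EBP, the sterol isomerase of a later step, was the other gene of this stretch that was lower in NTera-2. It read 11.27, 11.56 and 11.28 in 2102Ep control and 10.74, 10.71 and 10.56 in NTera-2 control, without overlap, a difference of -0.70 ± 0.11 (adjusted p = 6.78e-05). DHCR7, the reductase of the last step of the Kandutsch-Russell branch, read 10.92, 10.48 and 10.54 in 2102Ep control and 11.34, 11.52 and 11.38 in NTera-2 control. SQLE, the squalene epoxidase, read 11.24, 11.15 and 10.85 in 2102Ep control and 11.64, 11.74 and 11.58 in NTera-2 control. Both were higher in NTera-2 on every array, DHCR7 by 0.77 ± 0.12 (adjusted p = 7.49e-05) and SQLE by 0.57 ± 0.11 (adjusted p = 0.000428).

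TM7SF2, a sterol reductase that acts after CYP51A1, read 8.34, 8.35 and 8.27 in 2102Ep control and 8.76, 8.71 and 8.76 in NTera-2 control. MSMO1, the oxidase of the demethylation at carbon 4, read 10.54, 10.90 and 9.83 in 2102Ep control and 10.86, 11.09 and 11.08 in NTera-2 control. The lines were separate for TM7SF2, but for MSMO1 the second 2102Ep control array lay above the lowest NTera-2 array. TM7SF2 differed by 0.42 ± 0.10 (adjusted p = 0.0018) and MSMO1 by 0.58 ± 0.19 (adjusted p = 0.0202). The MSMO1 difference rested on the low replicate 3 of the 2102Ep control: without it the value was 0.29 (adjusted p = 0.119). Leaving out NTera-2 control replicate 2 (0.54, adjusted p = 0.0644) or 3 (0.55, adjusted p = 0.0627) ended the call as well. SC5D, a desaturase that acts before DHCR7, did not pass (-0.36 ± 0.15, adjusted p = 0.0692), and its arrays overlapped. HSD17B7 on its shared probe set gave 0.15 ± 0.14.

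The regulators did not move as a unit. INSIG1 read 9.31, 9.34 and 9.23 in 2102Ep control and 10.18, 10.27 and 10.27 in NTera-2 control. INSIG2, its paralogue with the same role in sterol sensing, read 8.10, 8.12 and 8.01 in 2102Ep control and 7.47, 7.47 and 7.52 in NTera-2 control. INSIG1 was thus higher in NTera-2 and INSIG2 lower, each without overlap. INSIG1 differed by 0.95 ± 0.10 (1.93-fold, adjusted p = 6.22e-07) and INSIG2 by -0.59 ± 0.12 (adjusted p = 0.000894).

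SREBF2 read 9.90, 9.38 and 9.77 in 2102Ep control and 10.05, 10.06 and 10.00 in NTera-2 control, a difference of 0.35 ± 0.13 (adjusted p = 0.0351). The gap was narrow and rested on the low second 2102Ep array, without which the difference was 0.20 (adjusted p = 0.172). The call was also lost when any of the NTera-2 control arrays was left out (adjusted p of 0.0663 to 0.088). SREBF1 (-0.12), SCAP (-0.19) and STARD4 (-0.28), a carrier of sterol between membranes, did not pass.

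The fatty acid genes were divided. FADS1, the delta-5 desaturase of polyunsaturated fatty acids, read 11.29, 11.02 and 10.95 in 2102Ep control and 11.95, 12.13 and 12.06 in NTera-2 control. FADS2, the delta-6 desaturase, read 12.63, 12.27 and 12.38 in 2102Ep control and 12.82, 12.79 and 12.75 in NTera-2 control. Both desaturases, neighbours on chromosome 11, were higher in NTera-2 on every array. FADS1 differed by 0.96 ± 0.11 (1.95-fold, adjusted p = 1.75e-06) and FADS2 by 0.36 ± 0.10 (adjusted p = 0.0102).

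ELOVL6, which elongates palmitate, and ACLY, which supplies cytosolic acetyl-CoA, were lower in NTera-2. ELOVL6 read 10.20, 10.44 and 9.77 in 2102Ep control and 9.30, 9.47 and 9.42 in NTera-2 control, a difference of -0.74 ± 0.14 (adjusted p = 0.000307). ACLY read 12.17, 11.76 and 11.75 in 2102Ep control and 11.37, 11.55 and 11.49 in NTera-2 control, a difference of -0.43 ± 0.12 (adjusted p = 0.00899). Neither overlapped, although ACLY was highest on 2102Ep control replicate 1 and without that array the difference was -0.29 (adjusted p = 0.0578). SCD, the stearoyl-CoA desaturase, lay just outside the threshold (0.28 ± 0.11, adjusted p = 0.0502), and FASN, fatty acid synthase (0.36 ± 0.16, adjusted p = 0.0937), and ACACA, acetyl-CoA carboxylase (0.03 ± 0.14), did not pass.

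**Figure D2:**
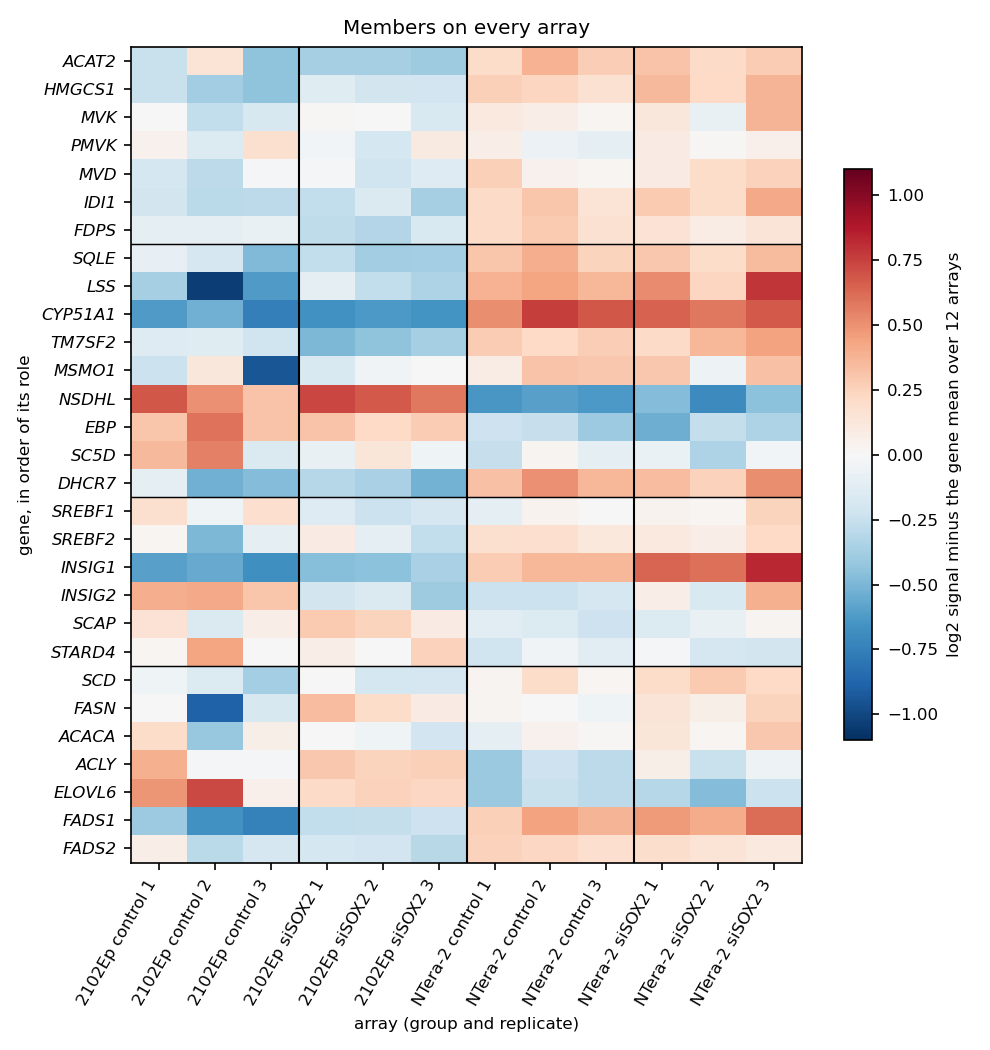
Log2 signal of each of the 29 measured genes (rows, in order of role, with black lines between the roles) on each of the 12 arrays (columns, by group and replicate), shown as the deviation from the mean of the gene over all arrays. The largest block of colour separates the lines, with CYP51A1, LSS, INSIG1 and FADS1 low in 2102Ep and high in NTera-2 and NSDHL, EBP and ELOVL6 the reverse. The 2102Ep control columns are uneven, with LSS and FASN lowest on replicate 2 and MSMO1 lowest on replicate 3.

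The 2102Ep control arrays differed among themselves in these genes, which touches every comparison with that group. Their median SD over the members was 0.182, against 0.0805 to 0.107 in the other groups. MSMO1 had the widest spread (SD 0.54), followed by FASN (SD 0.47). The second array held the lowest value of 13 members, among them LSS, FASN, ACACA and SREBF2, and at the same time the highest of 10, among them ACAT2, MSMO1, SC5D and ELOVL6, so it was not shifted as a whole. In NTera-2 siSOX2, replicate 3 held the highest value of 21 members and replicate 2 the lowest of 22. Replicate 3 also had the highest median over all genes of the 12 arrays (8.14, against 7.98 to 8.06 in the others).

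Promoter sequence was set beside these differences for the 3 genes that differed 2-fold, for both INSIG genes, and for SREBF2, the only member with the SREBP letters searched for. The windows are the 250 bases before a transcript start of the gene, from RefSeq on assembly GRCh38.p14, 5′ to 3′ on the strand of the gene. Of the 31 genes 27 had an entry, without ACAT2, FDFT1, SQLE and FASN, and the first listed start was used where there were several (2 for INSIG2). That start was the outer end of the annotated gene for 20 of the 27 and lay inside its span for 7, among the printed genes for CYP51A1, whose start lay 326 bases inside and whose window is thus within the annotated gene. The positions are chr7:92134478-92134727 (minus strand) for CYP51A1, chr21:46228775-46229024 (minus) for LSS, chrX:152830813-152831062 (plus) for NSDHL, chr7:155297628-155297877 (plus) for INSIG1, chr2:118088221-118088470 (plus) for INSIG2 and chr22:41832855-41833104 (plus) for SREBF2. Capitals mark CCAAT, the letters bound by NF-Y, or their reverse complement ATTGG, and in SREBF2 also a match to TCACNCCAC, a form of the sterol element bound by SREBPs.
CYP51A1: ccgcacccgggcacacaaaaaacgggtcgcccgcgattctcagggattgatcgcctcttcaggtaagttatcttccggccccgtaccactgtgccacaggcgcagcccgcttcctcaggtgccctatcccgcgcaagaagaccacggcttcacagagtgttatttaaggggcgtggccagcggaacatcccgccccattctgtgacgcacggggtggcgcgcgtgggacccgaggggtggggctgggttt
LSS: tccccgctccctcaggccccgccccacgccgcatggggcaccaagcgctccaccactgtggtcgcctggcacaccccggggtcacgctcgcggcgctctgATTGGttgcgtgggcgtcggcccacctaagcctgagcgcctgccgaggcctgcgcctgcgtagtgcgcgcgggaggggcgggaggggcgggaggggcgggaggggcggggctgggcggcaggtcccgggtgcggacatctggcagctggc
NSDHL: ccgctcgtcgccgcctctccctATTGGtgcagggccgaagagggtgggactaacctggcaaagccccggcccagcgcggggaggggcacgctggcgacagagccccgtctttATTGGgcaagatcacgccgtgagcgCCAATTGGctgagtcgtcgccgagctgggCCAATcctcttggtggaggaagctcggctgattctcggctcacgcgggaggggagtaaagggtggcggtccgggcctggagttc
INSIG1: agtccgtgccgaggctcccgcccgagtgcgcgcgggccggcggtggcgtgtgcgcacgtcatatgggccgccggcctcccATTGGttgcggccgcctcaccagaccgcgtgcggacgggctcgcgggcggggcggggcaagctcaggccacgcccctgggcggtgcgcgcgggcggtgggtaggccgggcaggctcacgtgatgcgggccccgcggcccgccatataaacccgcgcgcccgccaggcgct
INSIG2: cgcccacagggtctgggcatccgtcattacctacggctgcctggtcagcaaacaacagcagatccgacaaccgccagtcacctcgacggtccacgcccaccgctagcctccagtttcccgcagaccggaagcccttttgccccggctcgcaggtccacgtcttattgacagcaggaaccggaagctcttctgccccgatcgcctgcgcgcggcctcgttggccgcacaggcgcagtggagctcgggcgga
SREBF2: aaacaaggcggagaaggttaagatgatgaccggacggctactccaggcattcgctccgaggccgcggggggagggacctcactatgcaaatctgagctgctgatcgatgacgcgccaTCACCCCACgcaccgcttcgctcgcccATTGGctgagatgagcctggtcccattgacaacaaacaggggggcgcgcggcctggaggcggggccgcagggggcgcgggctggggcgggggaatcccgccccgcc
NSDHL held CCAAT 5 times on either strand, at 228, 138, 113, 110 and 84 bases before the start, and the matches at 113 and 110 overlap each other. LSS held it 150 bases, INSIG1 170 bases and SREBF2 106 bases before the start, and no match lay in the printed windows of CYP51A1 and INSIG2, which for CYP51A1 leaves out the bases before the outer end of the gene. In SREBF2 the TCACNCCAC match began 133 bases before the start, upstream of the CCAAT match.

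Over all 27 members with an entry, 17 held CCAAT on either strand (63%), and the share was 33% over the 27305 genes with a promoter entry. These are more genes than the 18404 measured here, and the members were not set against genes of like kind or signal. GGGCGG, the letters bound by Sp1, was found in 25 members (92.6%) and in 42.3% of all genes. CANNTG, the E-box, was found in 11 members (40.7%) and in 62.2% of all genes. TCACNCCAC was found in 1 member (3.7%) and in 0.9% of all genes. Of the letters of SOX binding sites, ACAAAG was found in HMGCS1, SC5D and EBP (11.1%, against 13.7% of all genes) and ACAATG in SREBF1 alone (3.7%, against 9.4%). These are matches of letters in a short window, and genes with CCAAT included both members that were higher in NTera-2, such as LSS and INSIG1, and members that were lower, NSDHL and EBP.

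The next comparison asked whether SOX2 siRNA changed these genes in 2102Ep, where SOX2 RNA fell most. Few did. FASN and FADS1 rose (6.9% of members, against 6.76% of all genes that rose), INSIG2 fell (3.45%, against 5.9% of all genes that fell), and 26 members did not pass. No member changed 2-fold in either direction, where 1.15% of all genes rose and 0.826% fell. The 95% interval of every measured member excluded a 2-fold change, with bounds from -0.89 to 0.92. The median difference of the members was -0.02, and that of all genes was -0.01. The arrays of siSOX2 and control did not overlap for 9 members (31%, against 25.2% of all genes).

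INSIG2 gave the clearest response. It read 8.10, 8.12 and 8.01 in 2102Ep control and 7.50, 7.54 and 7.31 in 2102Ep siSOX2. All 3 siSOX2 arrays lay well under the 3 control arrays of the line. The fall was 0.62 ± 0.12 on the log2 scale, to 0.65 of the control (adjusted p = 0.00193), and it passed in each of the 19 other settings in which the gene was tested, with adjusted p up to 0.0161. INSIG2 is among the dimmer genes, with signal near or below the medians of the arrays (7.98 to 8.14), and was not tested when genes under the median were left out.

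FASN read 11.18, 10.30 and 11.01 in 2102Ep control and 11.53, 11.39 and 11.28 in 2102Ep siSOX2. The siSOX2 arrays were all above the controls, but the second control array lay far below the other two. The rise was 0.57 ± 0.16 (1.48-fold, adjusted p = 0.0285). Without 2102Ep control replicate 2 it was 0.30 (adjusted p = 0.0965), without siSOX2 replicate 1 it was 0.50 (adjusted p = 0.121), and without siSOX2 replicate 2 it was 0.58 (adjusted p = 0.076). FADS1 read 11.29, 11.02 and 10.95 in control and 11.41, 11.42 and 11.46 in siSOX2, without overlap. Its rise was 0.35 ± 0.11 (adjusted p = 0.045) and was lost in 11 of 20 other settings, among them each omission of an siSOX2 array (adjusted p of 0.104 to 0.129) and of control replicate 2 (0.31, adjusted p = 0.112) or 3 (0.28, adjusted p = 0.145).

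The remaining members ranged from -0.29 to 0.44. LSS (0.44 ± 0.16, adjusted p = 0.0758), SREBF1 (-0.29 ± 0.10, adjusted p = 0.0824) and TM7SF2 (-0.27 ± 0.10, adjusted p = 0.086) came nearest to the threshold, each without overlap of the arrays. When each array was centred on its median, SREBF1 (-0.31, adjusted p = 0.0287) and TM7SF2 (-0.29, adjusted p = 0.0411) passed, and after a further quantile normalization LSS (0.43, adjusted p = 0.0492) passed as well. None of the 7 mevalonate pathway genes and none of the 9 measured genes from squalene to cholesterol passed without such a step. CYP51A1, for example, read 9.86, 9.89 and 9.87 after siSOX2 and differed from its control by -0.02 (95% interval -0.23 to 0.19). HMGCS1 differed by 0.17 (-0.03 to 0.38) and SQLE by -0.09 (-0.32 to 0.15).

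**Figure D3:**
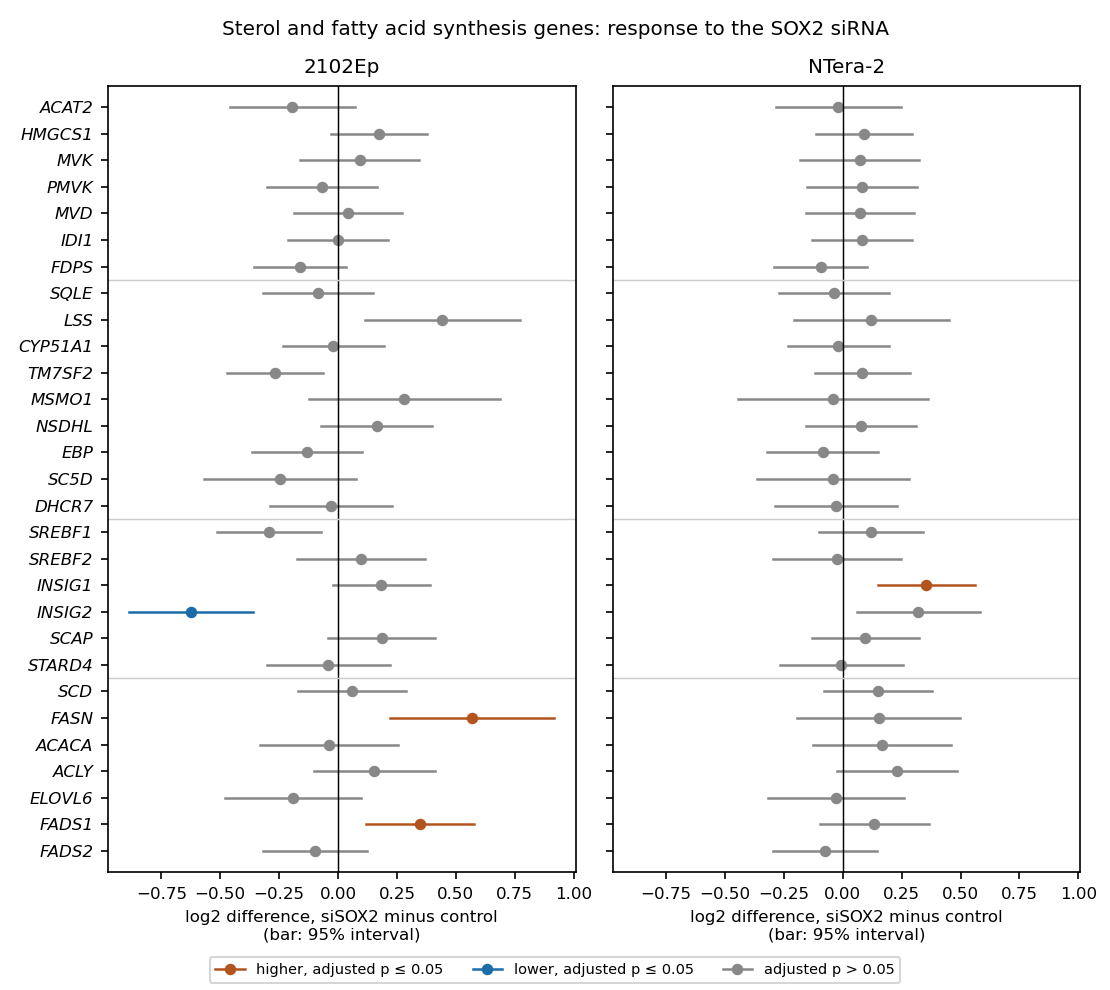
Log2 difference between siSOX2 and control in 2102Ep (left) and NTera-2 (right) for the 29 measured genes, listed by role as in the plot of the difference between the lines. Points are differences of the means of 3 arrays and bars their 95% intervals. Most intervals cross 0, and no interval reaches 1 or -1, a 2-fold change.

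In NTera-2, where SOX2 RNA fell less, 1 member passed. INSIG1 rose (3.45% of members, against 2.96% of all genes that rose) and no member fell (against 1.98% of all genes). No member changed 2-fold, where 0.31% of all genes rose and 0.348% fell, and the intervals of all members lay between -0.44 and 0.58. The median difference was 0.08 for the members and 0.04 for all genes. The arrays did not overlap for 4 members (13.8%, against 21.3% of all genes). INSIG1 read 10.18, 10.27 and 10.27 in NTera-2 control and 10.54, 10.51 and 10.73 in NTera-2 siSOX2. All siSOX2 arrays lay above all controls, and the rise was 0.35 ± 0.10 (1.28-fold, adjusted p = 0.0446). This call was close to the threshold and was lost in 13 of 20 other settings. Without NTera-2 siSOX2 replicate 3, the array with the highest median, the rise was 0.29 (adjusted p = 0.206), and with each array centred on its median it was 0.30 (adjusted p = 0.069). It was also lost without any other array of NTera-2, without 2102Ep control replicate 1 and without any 2102Ep siSOX2 array, with adjusted p of 0.05003 to 0.173.

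INSIG1 was higher after siSOX2 in 2102Ep too, with 9.43, 9.45 and 9.54 against 9.31, 9.34 and 9.23 and no overlap, but the difference of 0.18 ± 0.10 did not pass (adjusted p = 0.287). The difference between the responses of the lines was -0.17 ± 0.14 (2102Ep minus NTera-2, adjusted p = 0.698). INSIG2 in NTera-2 read 7.47, 7.47 and 7.52 in control and 7.78, 7.54 and 8.10 in siSOX2. The siSOX2 arrays were above the controls but uneven, by a small margin on replicate 2, and the difference of 0.32 ± 0.12 did not pass (adjusted p = 0.197).

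The last comparison tested whether the response to siSOX2 differed between the lines. INSIG2 was the only member to pass (3.45% of members lower in this difference, against 2.67% of all genes), and none was higher (against 2.53% of all genes). Its responses of -0.62 in 2102Ep and 0.32 in NTera-2 differed by -0.95 ± 0.18 (adjusted p = 0.00289). This difference passed in each of the 18 other settings in which it was tested, with values from -1.08 to -0.80 and adjusted p up to 0.0122. No member reached 2-fold with all 12 arrays (against 0.989% of all genes higher and 0.668% lower), although INSIG2 did so without NTera-2 siSOX2 replicate 2 (-1.08). The other 28 members ranged from -0.41 for SREBF1 (adjusted p = 0.146) to 0.42 for FASN (adjusted p = 0.469). The median was -0.05 for the members and -0.05 for all genes.

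**Figure D4:**
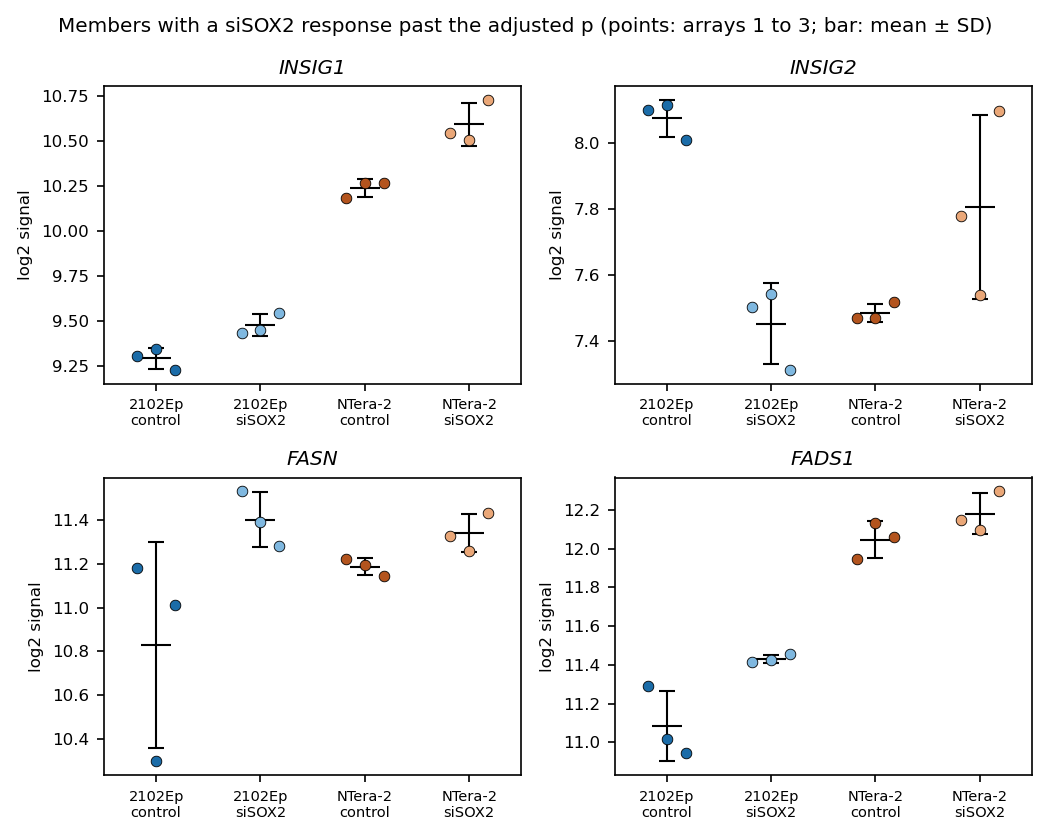
Log2 signal of INSIG1, INSIG2, FASN and FADS1, the members that passed in a knock-down, in the 4 groups. Points are the 3 arrays of a group in the order of their replicate numbers, and black bars are the mean ± SD. INSIG2 is high in 2102Ep control, low in 2102Ep siSOX2 and NTera-2 control, and uneven in NTera-2 siSOX2, FASN has a low second array in 2102Ep control, and INSIG1 and FADS1 are separated mainly by line.

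The comparison between the lines shares its control arrays with both knock-downs, so the values are given side by side only. For INSIG2 they were -0.59 between the lines, -0.62 after siSOX2 in 2102Ep and 0.32 after siSOX2 in NTera-2. For INSIG1 they were 0.95, 0.18 and 0.35, for FADS1 0.96, 0.35 and 0.13, and for FASN 0.36, 0.57 and 0.15. For CYP51A1 they were 1.28, -0.02 and -0.02, and for NSDHL -1.12, 0.16 and 0.08.

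Genes that handle sterol and fat outside the 31 members were described from lists of related function. Among 15 measured genes of sterol uptake, efflux and storage, 1 rose and 3 fell in 2102Ep (against 6.76% and 5.9% of all genes), and 3 rose in NTera-2 (against 2.96%). ABCA1, the exporter of cholesterol to lipid-poor apolipoproteins, read 8.79, 8.30 and 8.71 in 2102Ep control and 7.49, 7.38 and 7.14 in 2102Ep siSOX2. In NTera-2 it read 8.41, 8.47 and 8.58 in control and 8.98, 8.86 and 9.12 in siSOX2. ABCA1 thus moved in opposite directions, without overlap in either line, with a fall of 1.26 in 2102Ep (SE 0.13, adjusted p = 2.96e-06) and a rise of 0.50 in NTera-2 (SE 0.13, adjusted p = 0.0382), and the responses differed by -1.76 ± 0.19 (adjusted p = 1.2e-05). The NTera-2 rise was lost in 7 of 20 other settings.

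In 2102Ep the lipoprotein receptor gene VLDLR (-0.96 ± 0.13, adjusted p = 3.59e-05) and the apolipoprotein gene APOE (-0.37 ± 0.11, adjusted p = 0.0268, lost in 5 of 20 other settings) also fell, and SOAT1, which esterifies cholesterol for storage, rose (0.73 ± 0.10, adjusted p = 8.88e-05). In NTera-2 the sterol transporter gene ABCG1 (0.59 ± 0.11, adjusted p = 0.00235) and NPC2 (0.49 ± 0.13, adjusted p = 0.0338, lost in 6 of 20 other settings), a carrier of cholesterol out of lysosomes, rose. Of 9 other sterol and isoprenoid synthesis genes, FAXDC2, a relative of the sterol hydroxylases, rose in NTera-2 (0.57 ± 0.11, adjusted p = 0.00464) and none passed in 2102Ep. None of 7 other genes of the SREBP machinery passed in either line. Over all genes 6.76% rose and 5.9% fell in 2102Ep, and 2.96% rose and 1.98% fell in NTera-2.

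Among 22 measured genes of other fatty acid synthesis and elongation, 4 rose and 4 fell in 2102Ep (against 6.76% and 5.9% of all genes), and 1 rose in NTera-2 (against 2.96%). FADS3, a relative of FADS1 and FADS2 in the same cluster, read 11.39, 11.21 and 11.19 in 2102Ep control and 9.89, 9.90 and 9.75 in 2102Ep siSOX2. It fell by 1.42 (SE 0.10, adjusted p = 3.78e-08), with no overlap, to a level near that of NTera-2 control (9.64, 9.53 and 9.59). The elongases of long-chain fatty acids went both ways, with rises of ELOVL2 (0.81 ± 0.11, adjusted p = 5.71e-05) and ELOVL1 (0.80 ± 0.13, adjusted p = 0.000316) and a fall of ELOVL7 (-0.68 ± 0.11, adjusted p = 0.000428). ELOVL4 was lower too, without overlap, with 9.29, 9.36 and 9.03 in 2102Ep control and 8.51, 8.71 and 8.61 in 2102Ep siSOX2. ACSS2, which makes acetyl-CoA from acetate, rose in both lines, by 0.52 in 2102Ep (SE 0.12, adjusted p = 0.00621) and by 0.46 in NTera-2 (SE 0.12, adjusted p = 0.0321, lost in 6 of 20 other settings).

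Of 14 measured genes of fatty acid activation, storage and uptake, PLIN2, the coat protein of lipid droplets, fell in 2102Ep from 10.50, 10.60 and 10.37 to 9.68, 9.59 and 9.48 (-0.91 ± 0.10, adjusted p = 6.76e-06) and GPAM, an acyltransferase of glycerolipid synthesis, rose (0.42 ± 0.12, adjusted p = 0.0263, lost in 5 of 20 other settings). LPIN1, a phosphatase of the same route, fell in NTera-2 (-0.47 ± 0.12, adjusted p = 0.0211, lost in 4 of 20). Of 16 measured genes of fatty acid oxidation, CPT1A, which admits long-chain fatty acids to mitochondria, fell in both lines, by 0.85 in 2102Ep (SE 0.13, adjusted p = 0.000226) and by 0.58 in NTera-2 (SE 0.13, adjusted p = 0.0144, lost in 3 of 20). In 2102Ep its relative CPT1C also fell (-0.46 ± 0.10, adjusted p = 0.00312) and PPARGC1A, a transcriptional coactivator of oxidative metabolism, rose (0.50 ± 0.13, adjusted p = 0.0178, lost in 2 of 19). The shares of all genes were 6.76% higher and 5.9% lower in 2102Ep, and 2.96% higher and 1.98% lower in NTera-2.

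**Figure D5:**
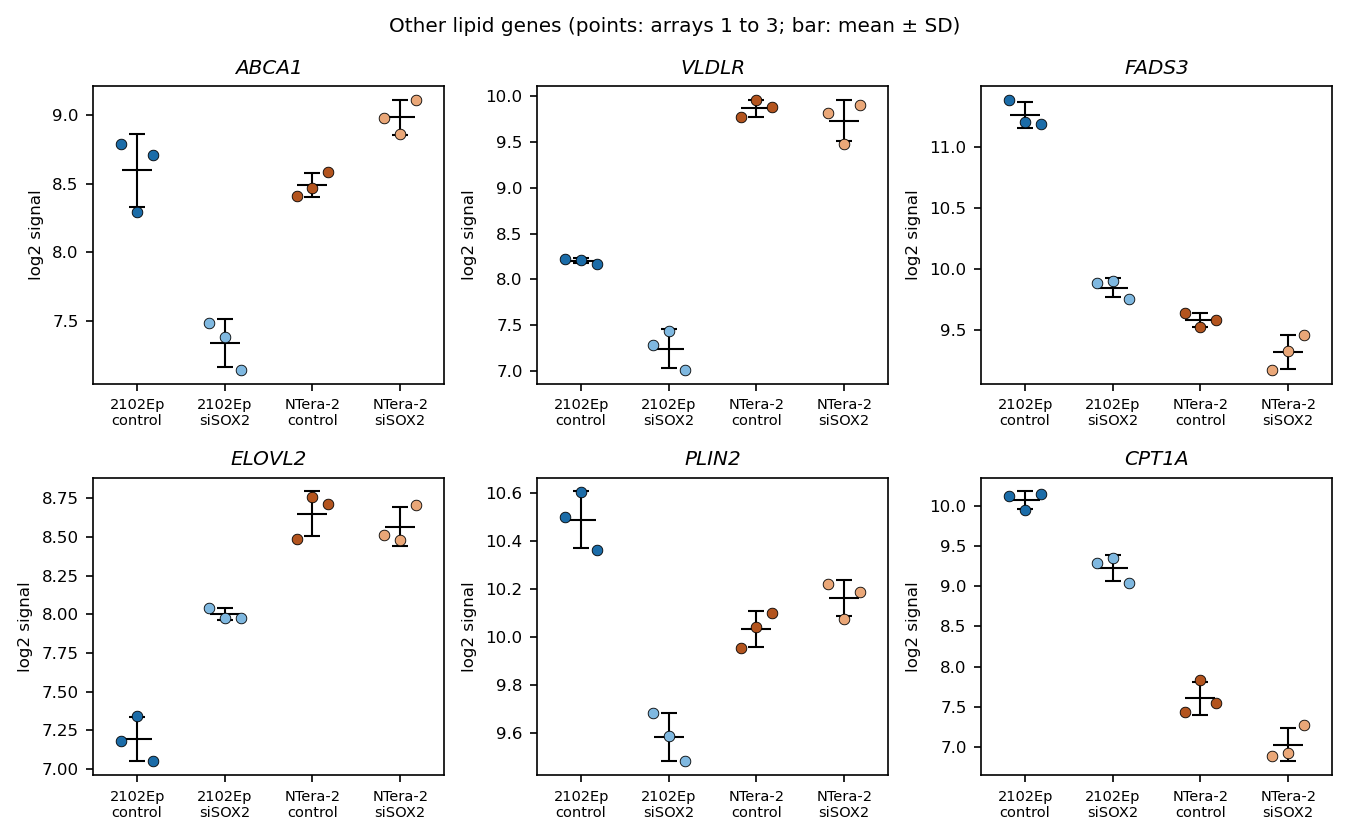
Log2 signal of 6 genes of lipid handling that are not among the 31, in the 4 groups. Points are the 3 arrays of a group in the order of their replicate numbers, and black bars are the mean ± SD. ABCA1, VLDLR, FADS3 and PLIN2 fall after siSOX2 in 2102Ep, ABCA1 rises in NTera-2, and CPT1A falls in both lines from very different starting levels.

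Between the control groups of the lines, 4 of 9 other sterol and isoprenoid synthesis genes were higher in NTera-2 and 1 was lower. LBR, which carries the same reductase activity as TM7SF2, was higher by 1.02 ± 0.10 (adjusted p = 2.45e-07), and the mitochondrial thiolase gene ACAT1 by 1.5 ± 0.12 (adjusted p = 4.65e-08). Of the 7 other genes of the SREBP machinery, 2 were higher and 2 lower. MBTPS1, the Golgi protease that makes the first cut of the SREBPs, was higher by 0.83 ± 0.16 (adjusted p = 0.000344). Of the 15 genes of sterol uptake, efflux and storage, 3 were higher and 5 lower. The receptor genes VLDLR (1.67 ± 0.13, adjusted p = 1.58e-08) and LRP8 (0.66 ± 0.10, adjusted p = 4.38e-05) were higher in NTera-2, and NPC2 was lower (-1.06 ± 0.13, adjusted p = 3.35e-06). Of the 22 genes of other fatty acid synthesis and elongation, 7 were higher and 9 lower. ELOVL2 was higher (1.46 ± 0.11, adjusted p = 1.68e-08) and FADS3 (-1.68 ± 0.10, adjusted p = 1.5e-09) and ME1, a source of NADPH (-1.69 ± 0.14, adjusted p = 4.57e-08), were lower. Among the 14 genes of fatty acid activation, storage and uptake, 2 were higher and 7 lower, with a median difference of -0.27. PNPLA3 was higher and ACSL4, PLIN2 and AGPAT2 were lower, each also in all 20 other settings. Of the 16 genes of fatty acid oxidation, 1 was higher and 3 lower, among them CPT1A (-2.47 ± 0.13, adjusted p = 2.24e-10). Over all genes 21% were higher and 21.5% lower.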

How the data were processed

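Affymetrix Human Gene 1.0 ST arrays were analysed, 12 in all, with 3 in each of 4 groups of line and siRNA taken from the labels. The authors deposited log2 signals, 1 per probe set, made by robust multi-array averaging in the software of the manufacturer (version not given in the sources used here). That method corrects background, quantile-normalizes probes and summarises them by median polish. The range of 1.57 to 14.98 was the basis for reading the values as log2. Such values compress low signals, so differences of dim genes tend to be understated. Arrays give no counts, and their number limits the precision (median SE of a difference 0.121). The submitters' processing notes also name limma.

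Of 32321 probe sets, 19158 had 1 gene, 1388 several and 11775 none in the platform annotation, and 18376 of the 18404 genes were matched to a RefSeq symbol. Where a gene had several probe sets (637 genes), that with the highest mean was used. All 12 arrays were fitted with 1 mean per group with limma 3.58.1 (lmFit, eBayes; R 4.3.3), tested on simulated data first. A member passed at an adjusted p (Benjamini-Hochberg over all genes of the comparison) of 0.05 or less, and was called at 2-fold with, in addition, p before adjustment no higher than 0.01. Adjusted p-values come from limma throughout, and intervals cover 95%. An exact permutation test of 3 against 3 arrays cannot go below 0.1. Promoter letters were searched and plots drawn under Python 3.11.15 (matplotlib 3.10.9).

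The members, the other gene lists and the motifs were chosen with earlier results of these data known. All members may be named, and from each other list up to 4 genes per comparison with the smallest adjusted p. A gene named for one comparison may be given in another too, as ELOVL4 and ACSS2 are for siSOX2 in 2102Ep. Alternatives were a replicate block, only the groups compared, no dim genes, other scalings, other probe sets, another variance model, another fold and leaving out each array. For genes outside the members these were added after seeing the data.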

Additional observations from a re-analysis of the deposited data

Results flagged for a closer look

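Responses to siSOX2 that differed between the lines by the interaction test (2102Ep minus NTera-2, log2) are listed here with their values. Among the members this was INSIG2 (-0.95 ± 0.18, SE, adjusted p = 0.00289). Among the other genes of sterol uptake, efflux and storage these were ABCA1 (-1.76 ± 0.19, adjusted p = 1.2e-05), VLDLR (-0.82 ± 0.18, adjusted p = 0.00941), APOE (-0.66 ± 0.15, adjusted p = 0.0127) and NPC2 (-0.65 ± 0.18, adjusted p = 0.0459, lost in 12 of 19 other settings). Among the other genes of fatty acid synthesis these were FADS3 (-1.15 ± 0.15, adjusted p = 9.41e-05), ELOVL2 (0.89 ± 0.16, adjusted p = 0.00178), FA2H (-0.62 ± 0.15, adjusted p = 0.0223, lost in 5 of 18 other settings) and ELOVL4 (-0.58 ± 0.15, adjusted p = 0.0325, lost in 10 of 19). In fatty acid storage and oxidation these were PLIN2 (-1.03 ± 0.14, adjusted p = 0.000213) and CPT1C (-0.79 ± 0.14, adjusted p = 0.00163). SOX2 RNA itself fell more in 2102Ep (-2.49 ± 0.17, adjusted p = 4.87e-08). The reagent and the amount of siRNA differed between the lines and cannot be told apart from the line.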

How the results depend on the processing

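No gene that passed changed sign under an alternative. Of the differences between the control groups, 15 of 19 members passed in every setting in which they were tested, the exceptions being MSMO1, SREBF2, FDPS and ACLY, and the count that passed ran from 16 to 21 when 1 array was left out. Over all genes 42.4% passed in the main fit and 34.8% to 42.9% with 1 array left out. The median of the members was 0.253 after a further quantile normalization and 0.215 to 0.348 with an array left out, the lowest without 2102Ep control replicate 2. At 1.5-fold in place of 2-fold, 9 members were called, and the share of all genes at that fold is not given here. In 2102Ep the number of members that passed after siSOX2 was 1 with only the groups compared, 5 with median centring, 6 with quantile normalization again, and 1 to 4 with an array left out, and 1 (INSIG2) was called at 1.5-fold. Over all genes 12.7% passed in the main fit. The share was 9.79% with only the groups compared, 13.7% with median centring and 14.8% with quantile normalization again. With an array left out it was 9.56% to 12.7%. The median of the members, near 0, changed sign, from -0.0201 to 0.0322 with an array left out and to 0.000283 with the mean of all probe sets. In NTera-2 the count of members was 0 with the replicate block, with only the groups compared and with median centring, and 0 to 1 with an array left out. Over all genes 4.94% passed in the main fit, and 4.53%, 5.63% and 4.98% in those settings in turn. With an array left out the share was 3.05% to 5.85%. For the difference between the responses the count of members was 0 without dim genes, a filter that removes INSIG2, and 1 was called at 1.5-fold and 0 to 1 at 2-fold with an array left out. Of all genes tested, 5.2% passed in the main fit and 6.17% without dim genes. The labels do not say whether arrays with the same replicate number were paired. The deviations of same-numbered arrays correlated at 0.07, 0.18 and 0.13 in 2102Ep and at -0.25, -0.21 and 0.14 in NTera-2. Those of differently numbered arrays ran from -0.39 to 0.30 in 2102Ep and from -0.23 to 0.34 in NTera-2. So few values cannot settle a pairing. With the replicate block, FADS1 in 2102Ep (adjusted p = 0.0698) and INSIG1 in NTera-2 (adjusted p = 0.0688) no longer passed, and the other 22 of 24 calls of members kept their side. Of 57 results on other genes, 42 passed in every setting in which they were tested. The cause of these changes was not tested.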

Other observations

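The 2 measured members on the X chromosome, NSDHL and EBP, were both lower in NTera-2 control than in 2102Ep control (-1.12 and -0.70). Over all 694 measured genes of the X chromosome 39.2% were lower in NTera-2 at an adjusted p of 0.05 or less and 11.7% were higher, with a median difference of -0.20. Over 17682 genes of the other chromosomes 20.8% were lower and 21.3% higher, with a median of -0.06. Of the 27 members on other chromosomes, 14 were higher and 3 lower. The part of the chromosome in the 2 differences was not tested.

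Some values that belong to no single comparison stood out. FADS1, FADS2 and FADS3 are neighbours on chromosome 11 and moved apart, with differences of 0.96, 0.36 and -1.68 between the lines and of 0.35, -0.10 and -1.42 after siSOX2 in 2102Ep, where that of FADS2 did not pass. CYP51A1 was the member with the widest difference between the lines, yet its siSOX2 responses were -0.02 in both lines. Its dimmer second probe set gave 0.50 between the lines, and 0.10 in 2102Ep and 0.18 in NTera-2 after siSOX2. Neither of these siSOX2 responses passed.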
